A study of Mus musculus with 4 samples.

Results

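Retnla, Cbr2, Mgl2, Clec10a, Cd209a, Clec4n, Clec4d, Clec4e, Clec7a and Clec4a1 were taken as 1 group of myeloid genes: a secreted effector of alternative activation, an enzyme of resident macrophages, and the lectin receptors of dendritic cells and macrophages. They were chosen by gene symbol from the feature list of the deposited matrices, where 9 of the 10 had a row among 31053 genes. Clec7a, which encodes the beta-glucan receptor Dectin-1, had no row in that list and was not analysed here. Their UMI counts (UMIs are the molecular tags that mark single captured RNA molecules) were examined by library and by cell gate.

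The hearts came from CSF1R-EGFP+ mice, male and female on a C57Bl6J background and 12 to 16 weeks old, in which a green fluorescent protein under control of the Csf1r promoter marks macrophages and related myeloid cells. The baseline library (No surgery) pooled 3 uninjured hearts, and each of the 3 infarct libraries came from 1 heart taken at day 7 after permanent ligation of the left coronary artery, with the remote zone cut away before digestion. All groups carried the same reporter, and all cells were sorted as EGFP+ after Ly6G+ neutrophils had been gated out. Since the baseline is 1 library of 3 pooled hearts, no test of infarct against baseline was possible, and baseline values carry intervals that cover counting error only.

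Retnla encodes a secreted cysteine-rich protein (RELM-alpha) that interleukin-4 and interleukin-13 induce through the transcription factor STAT6, and Cbr2 encodes a carbonyl reductase known as a marker of resident macrophages. Mgl2 and Clec10a encode a pair of related macrophage galactose-type lectins that bind galactose and N-acetylgalactosamine residues, and Cd209a encodes a mouse relative of DC-SIGN carried by dendritic cells derived from monocytes and by type 2 dendritic cells. Clec4n (Dectin-2), Clec4d (MCL) and Clec4e (Mincle) encode activating receptors that pair with the Fc receptor gamma chain, encoded by Fcer1g, and signal through the kinase Syk and the adaptor Card9. Mincle binds microbial glycolipids and a nuclear protein released by dying cells. Clec4a1 encodes a member of the DCIR group of lectins, whose founding member carries an inhibitory motif.

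On the GRCm38 build, the annotation placed the genes in small neighbourhoods. Clec4n, Clec4d and Clec4e lay next to each other on chromosome 6, with 15089 bases between Clec4n and Clec4d, 6523 bases between Clec4d and Clec4e, and no other coding gene between. Clec4a1 lay 295223 bases from Clec4n on the same chromosome, with 5 coding genes between. Mgl2 and Clec10a were neighbours on chromosome 11, 18646 bases apart, and Cbr2 lay on the same chromosome with 959 coding genes between it and Clec10a. Retnla and Cd209a were on chromosomes 16 and 8.

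The stretches just upstream of 4 of the genes are printed as examples: those of Retnla and Mgl2, which were far lower in the infarcts, and those of the neighbours Clec4d and Clec4e, which are transcribed from opposite strands and differed from each other by cell gate. Each is taken from the RefSeq promoter table (GRCm38.p6), ends at the base before the transcribed part and is written 5′ to 3′ on the gene's own strand. Capitals mark matches, on either strand, to the STAT6 motif (TTC and GAA set apart by 4 bases of any kind), to GAGGAA (a core of the motif of PU.1, the myeloid lineage factor) or to TATAAA.
Retnla (chr16:48842359-48842550, plus strand): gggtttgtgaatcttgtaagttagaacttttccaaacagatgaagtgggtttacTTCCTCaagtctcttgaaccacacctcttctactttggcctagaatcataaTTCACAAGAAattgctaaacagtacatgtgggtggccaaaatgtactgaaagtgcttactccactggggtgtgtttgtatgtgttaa
Mgl2 (chr11:70130107-70130328, plus strand): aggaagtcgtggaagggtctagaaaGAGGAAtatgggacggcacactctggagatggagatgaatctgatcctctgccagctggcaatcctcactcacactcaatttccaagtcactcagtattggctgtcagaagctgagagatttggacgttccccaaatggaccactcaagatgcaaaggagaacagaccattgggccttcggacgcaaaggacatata
Clec4d (chr6:123261857-123262106, plus strand): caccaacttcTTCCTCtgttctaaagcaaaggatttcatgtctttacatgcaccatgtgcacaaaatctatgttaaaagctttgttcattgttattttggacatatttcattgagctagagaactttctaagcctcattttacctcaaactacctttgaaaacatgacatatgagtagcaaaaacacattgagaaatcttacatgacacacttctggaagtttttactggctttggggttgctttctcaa
Clec4e (chr6:123289872-123290121, minus strand): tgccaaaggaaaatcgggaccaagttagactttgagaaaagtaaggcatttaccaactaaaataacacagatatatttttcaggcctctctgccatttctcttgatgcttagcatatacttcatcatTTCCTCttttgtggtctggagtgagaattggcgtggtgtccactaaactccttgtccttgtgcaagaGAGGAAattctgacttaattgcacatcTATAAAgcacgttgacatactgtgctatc
In windows of 250 bases, the STAT6 motif was present in 5.85% of 32851 RefSeq promoters, GAGGAA in 23.3% and TATAAA in 12.4%. Of the 4 printed stretches, that of Retnla held 1 match to the STAT6 motif, each held at least 1 match to GAGGAA, and that of Clec4e held 1 match to TATAAA. Of the stretches not printed, those of Cbr2 and Cd209a held no GAGGAA, that of Cd209a held 1 match to TATAAA, and that of Clec4a1 held 1 match to the STAT6 motif and 2 to GAGGAA. In the whole window of 250 bases, Retnla also held 1 match to TATAAA and Cbr2 1 match to GAGGAA, outside those stretches. Such matches are descriptions of letters in these windows.

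After filtering, 10238 baseline cells and 10396, 10782 and 10117 cells of infarcts 1, 2 and 3 were kept, with median depths of 6398.5, 8556.5, 8469.5 and 8504 UMIs per cell. Any pair of libraries shared 26 to 34 cell barcodes, at most 0.332% of the smaller library. Gates were built from marker lists that held none of the genes described here, and gate names carry "like" since they rest on RNA markers. Resident macrophage-like cells (Lyve1, Cd163, Timd4, Folr2 and Vsig4 as markers) made up 29.9% of baseline cells but 0.539%, 0.825% and 0.959% of the infarct libraries. Reparative macrophage-like cells (Gpnmb, Spp1, Gdf15, Fabp5 and Syngr1) made up 2.00% of baseline cells and 30.9%, 43.1% and 38.7% of the infarct libraries.

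Retnla, Mgl2 and Cbr2 were the genes that differed most between the uninjured heart and the infarcts. Levels are given as CPM, the UMIs of a gene for each 1000000 UMIs of the same library or gate. Retnla stood at 840 CPM (95% Poisson interval 833 to 847) in the baseline library and at 38.1, 9.86 and 20.4 in infarcts 1, 2 and 3 (22.8 ± 14.3, SD, n = 3). All infarct libraries lay below the baseline, 36.9-fold on average, and among themselves they ranged over 3.86-fold. Mgl2 stood at 630 CPM at baseline and at 48.8, 33.7 and 51.5 in the infarcts, a mean 14.1-fold lower. Cbr2 stood at 367 at baseline and at 42.9, 25.4 and 39.9 in the infarcts, a mean 10.2-fold lower. For both of these genes the infarct libraries lay close together and far from the baseline. These 3 of the 9 genes were at least 10-fold lower in the infarcts, against 0.208% of the 7708 genes averaging at least 10 CPM over the libraries. At 2-fold or more, the same 3 genes were lower (5.07% of all genes) and Clec4n and Clec4d were higher (2.28%).

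Clec10a and Cd209a, both highest in the dendritic cell-like gate of the infarcts, were also lower, but by much less. Clec10a stood at 71.3 CPM at baseline and at 52.3, 30.2 and 34.5 in the infarcts, 1.83-fold lower on average. Cd209a stood at 57.0 at baseline and at 44.0, 28.0 and 28.4 in the infarcts, 1.70-fold lower. The position of Cd209a depended on the scale: with every cell thinned to 2000 UMIs, and with each cell given equal weight, its infarct range overlapped the baseline (log2 difference -0.36 and -0.27). No other gene of the 9 changed side under those settings.

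The chromosome 6 lectins lay on the other side. Clec4d stood at 24.5 CPM at baseline and at 114, 120 and 129 in the infarcts (121 ± 7.45, SD, n = 3), 4.95-fold higher, and the infarct libraries were nearly level with each other. Clec4n stood at 73.4 at baseline and at 138, 204 and 163 in the infarcts, 2.29-fold higher. Clec4e stood at 43.6 at baseline and at 77.8, 49.3 and 50.6, a mean 1.36-fold higher, with infarct 1 apart from the other libraries. Clec4a1 stood at 186 at baseline and at 225, 236 and 197, only 1.18-fold higher. In all, 4 genes lay above and 5 below the baseline in all 3 infarct libraries, where 30.7% and 55.7% of all 7708 genes did so. The median gene differed by -0.17 on the log2 scale in CPM and by 0.11 with TMM scaling (TMM is edgeR's library scaling), and none of the 9 genes changed side with TMM.

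**Figure D1:**
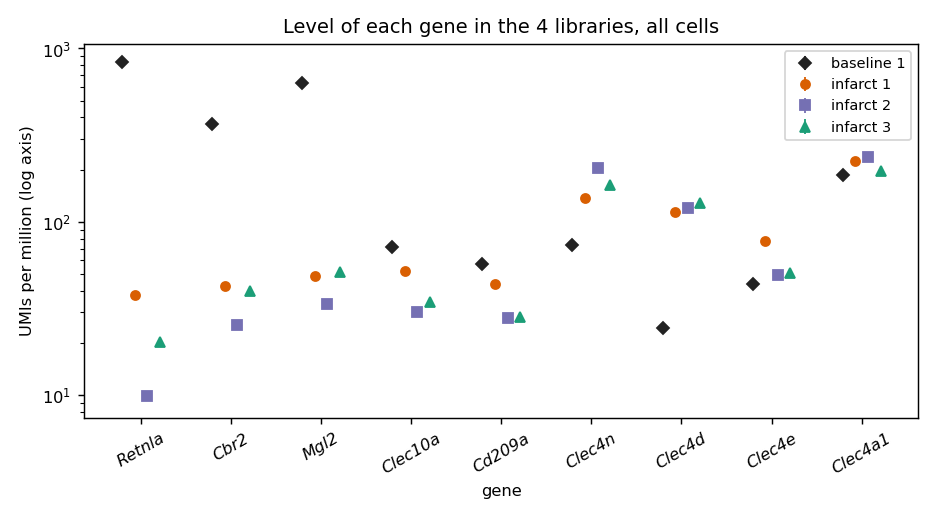
Level of each of the 9 genes, in CPM summed over all kept cells (log axis), in the baseline library of 3 pooled hearts and in the 3 day-7 infarct libraries, 1 point per library. Retnla stands at 840 at baseline and between 9.86 and 38.1 in the infarcts, while Clec4d stands at 24.5 and between 114 and 129.

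The same genes lay above and below the baseline within the macrophage gates alone, which leave out monocytes, dendritic cells and granulocytes. Retnla stood at 771 CPM in baseline macrophage-like cells and at 41.4, 10.4 and 22.6 in those of the infarcts. Mgl2 was 24.2-fold lower there, Cbr2 12.6-fold and Clec10a 3.14-fold, and Clec4d was 6.35-fold higher (18.2 at baseline against 110, 110 and 125). Of the 9 genes, 4 were again above and 5 below in all infarct libraries, against 30.2% and 56.6% of 7674 genes. At 2-fold or more, 4 were lower (5.82% of all genes) and 2, Clec4d and Clec4e, were higher (2.83%). Retnla, Mgl2 and Cbr2 were again at least 10-fold lower, as were 0.3% of all genes.

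Shares of cells with at least 1 UMI of a gene were compared after each cell was thinned to 2000 UMIs, because the infarct libraries were deeper. Mgl2 was seen in 47.5% of baseline cells (59.2% unthinned) and in 4.13%, 3.18% and 4.65% of infarct cells, and Cbr2 in 31.5% (43.0% unthinned) and in 5.80%, 3.8% and 5.33%. Retnla was seen in 9.52% of baseline cells (17.7% unthinned) and in 1.42%, 0.129% and 0.540% of infarct cells. Clec4d was seen in 2.98% of baseline cells (7.40% unthinned) and in 14.7%, 14.8% and 16.2% of infarct cells (32.5%, 33.0% and 34.8% unthinned). B cell-like cells, which should lack these genes, were set beside these shares as a possible background. In the baseline library their thinned shares were 13.0% for Mgl2, 9.26% for Cbr2, 5.56% for Retnla and 0.926% for Clec4d, and in the infarcts at most 3.45% for Mgl2, 2.17% for Cbr2 and 1.09% for Retnla but between 6.90% and 20.7% for Clec4d. The B cell-like gate was itself mixed: the summed macrophage markers stood at 4597 CPM in it at baseline, with a median depth of 3944 UMIs, and at 9219, 14072 and 10430 in the infarcts, with median depths of 10646, 10682 and 9926. Within the same library, the shares of Retnla in infarct 3, of Mgl2 in infarct 2 and of Clec4d in infarct 3 lay below that of this gate. Since the gate was mixed, it gives no clean background, and these shares over all cells are not read alone as expression. By gate, the Clec4d share in infarct 3 was 43.0% in Saa3-Arg1 macrophage-like and 1.44% in dendritic cell-like cells. The share with Clec4a1 was 30.1% at baseline and 33.4%, 34.7% and 29.7% in the infarcts, so that 1 infarct library lay just below the baseline. Its share in B cell-like cells was 13.0% at baseline and ranged up to 48.3% in infarct 2, above the share over all cells there.

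The Retnla signal was carried by few cells. At baseline, 72 cells held 50% of its UMIs, and 418 cells with 10 or more UMIs held 96.5%. The highest cell, in the MHC-II-high macrophage-like gate, held 996 Retnla UMIs. Of the 418 cells, 153 were resident macrophage-like, 113 MHC-II-high macrophage-like and 81 in no gate, and 41 were among the cells with the highest doublet scores. For comparison, 1023 cells held 50% of the Mgl2 UMIs and 764 cells 50% of those of Cbr2 at baseline, with at most 117 and 61 UMIs in 1 cell.

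In infarct 1, 58 cells had 10 or more Retnla UMIs, of which 29 were Saa3-Arg1 macrophage-like and held 42.7% of the gene's UMIs in that library. Infarct 2 had 6 such cells, and a single reparative macrophage-like cell with 464 UMIs held 50.2% of the library's 925 Retnla UMIs. Infarct 3 had 24 such cells, and the highest held 320 UMIs. Without the highest cell of each library, an alternative chosen after the data were seen, Retnla stood at 825 at baseline and at 35.7, 4.91 and 16.6 in the infarcts, so that infarct 2 moved most and the baseline least.

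**Figure D2:**
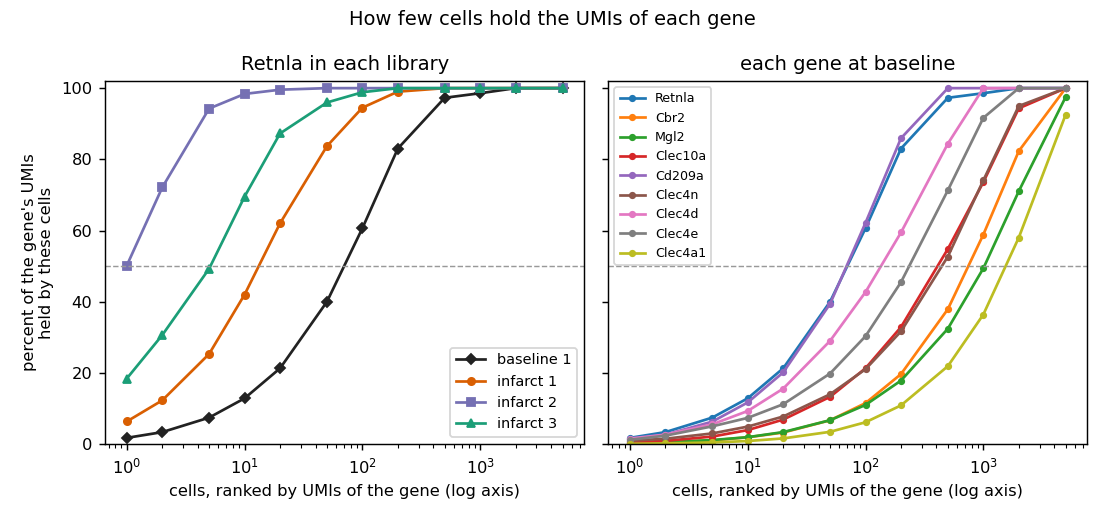
Percent of a gene's UMIs held by the cells with most of them, ranked (log axis), for Retnla in each library and for each gene in the baseline library; the dashed line marks 50%. In the baseline library 72 cells reach 50% for Retnla, against 764 for Cbr2 and 1023 for Mgl2.

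The Retnla-high baseline cells were set beside the other baseline cells as a description, with no test, since they were chosen by their Retnla counts. The 301 such cells in macrophage gates held Mucl1 at 113 CPM against 4.21 in the other 6375 macrophage-like cells, Lyz1 (a lysozyme) at 724 against 83.5, and Fn1 (fibronectin) at 998 against 182. Clec4n ran the other way, at 22.3 against 91.4, while Cbr2 was nearly level at 536 against 515. The 81 cells outside the gates held Lyz1 at 2362 against 58.9 in the other 893 ungated cells, Aldh1a2 (a retinal dehydrogenase) at 234 against 7.42, and C1qa, a complement gene of macrophages, at 125 against 353. Their Retnla made up 24.8% of all baseline Retnla UMIs, and no cell type is given to them here.

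Among infarct cells, Retnla and Cbr2 were highest in the few resident macrophage-like cells that were found (56, 89 and 97 cells). Retnla stood at 138 ± 43.1 CPM there (SD, n = 3), against 21.3 ± 14.3 in all other gated myeloid cells, and this difference passed the test in edgeR's quasi-likelihood fit with library as a block (log2 difference 2.85 ± 0.19, SE, adjusted p = 1.99e-27 after Benjamini-Hochberg correction, with 3 of 3 libraries higher). Cbr2 stood at 535 ± 131 against 33.5 ± 9.0 (log2 difference 3.83 ± 0.12, edgeR adjusted p = 3.05e-57). In the same gate 469 of 13185 genes (3.56%) were higher. At baseline the resident macrophage-like level was 542 for Retnla and 868 for Cbr2, and the gate held 22.0% of the library's Retnla UMIs and 80.6% of those of Cbr2.

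Saa3-Arg1 macrophage-like cells, named for an acute-phase protein and arginase-1, gave a second group. Cbr2 stood at 107 ± 27.2 CPM in them (log2 difference 1.76 ± 0.10, edgeR adjusted p = 2.97e-13). Retnla reached 152 in the highest infarct library and was at 0 UMIs in infarct 2, where the gate held 103 cells, against 1236 and 725 in infarcts 1 and 3. The difference passed the test (log2 2.36 ± 0.27, edgeR adjusted p = 1.06e-07) but was present in 2 of 3 libraries. The ranges of the resident macrophage-like and Saa3-Arg1 macrophage-like gates overlapped for Retnla and not for Cbr2.

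In the other gates Retnla stood lower in the infarct libraries than at baseline, except in classical monocyte-like cells, where the baseline level of 15.4 CPM lay within the infarct range (0 to 21.7). Non-classical monocyte-like cells held 2017 Retnla UMIs (378 CPM) at baseline and 0 UMIs in the infarcts. By counting error alone, a count of 0 allows up to 1.82 CPM over the 3 libraries. That limit leaves out the gathering of Retnla UMIs in few cells, so it bounds the level only loosely. The gate held 95, 108 and 131 cells in infarcts 1, 2 and 3. Of all cells in these libraries, 2.24%, 0.223% and 1.19% had a Retnla UMI. The dendritic cell-like gate stood at 1383 at baseline and at 0.330 ± 0.288 in the infarcts. In that gate 13 baseline cells with 10 or more UMIs held 5.41% of the library's Retnla UMIs, and in the granulocyte-like gate 3 such cells made the baseline level of 1658. MHC-II-high macrophage-like cells stood at 1200 at baseline and at 31.0 ± 19.9 in the infarcts, where they were higher than the other myeloid cells (20.6 ± 12.6, log2 0.68 ± 0.10, edgeR adjusted p = 0.000312). Interferon-response macrophage-like cells stood at 682 at baseline and at 30.3, 0.211 and 65.1 in the infarcts, and in infarct 3 a single cell held 320 of the gate's 327 Retnla UMIs. Reparative macrophage-like cells stood at 561 at baseline and at 8.75 ± 1.78 in the infarcts. A single cell of this gate in infarct 2 held 464 Retnla UMIs, against 1015 in the gate over all 3 infarct libraries.

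**Figure D3:**
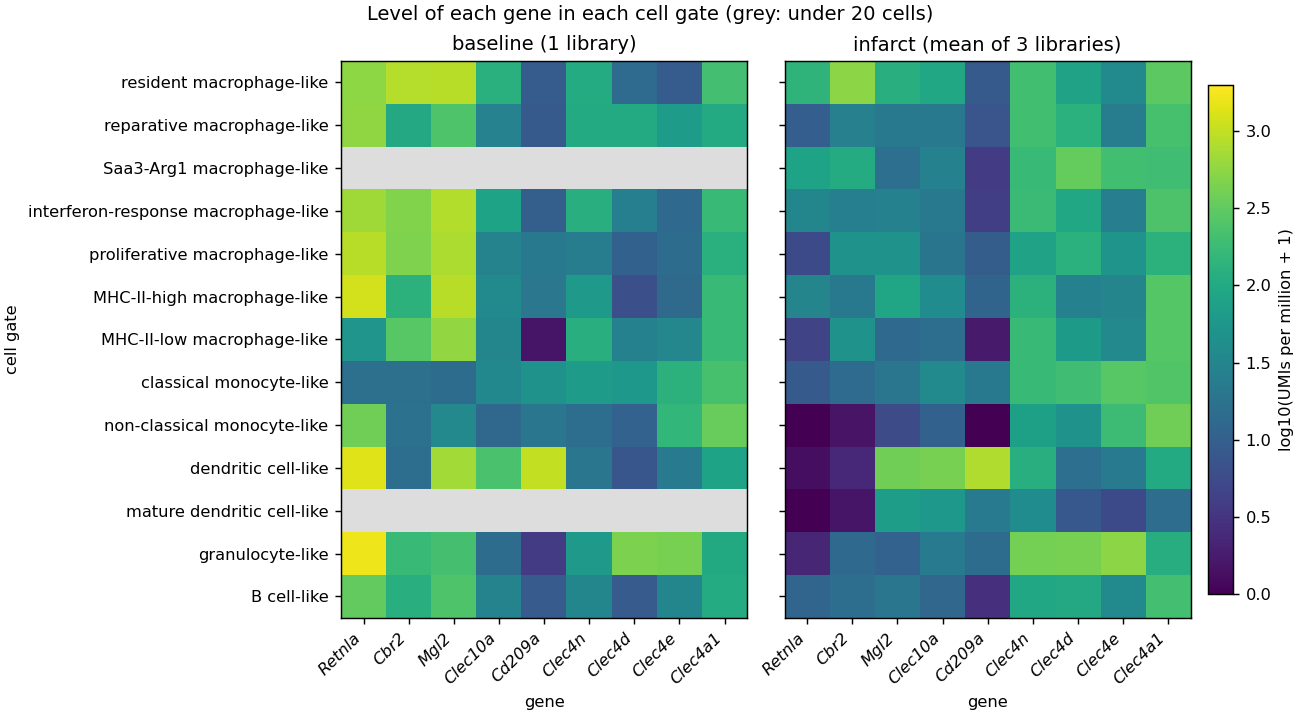
Level of each gene by cell gate, as log10(CPM + 1), at baseline and as the mean of the 3 infarct libraries. Cd209a, Mgl2 and Clec10a are highest in the dendritic cell-like gate of the infarcts (means of 809, 385 and 423 CPM), and Cbr2 in the resident macrophage-like gate (535).

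Dendritic cell-like cells (378, 217 and 217 cells in the infarct libraries) carried Cd209a, Clec10a and Mgl2 together. Cd209a stood at 809 ± 40.1 CPM (784 to 855 over the 3 libraries), against 7.64 ± 1.94 in the other myeloid cells (log2 difference 6.75 ± 0.12, edgeR adjusted p = 3.26e-15). Clec10a stood at 423 ± 56.9 against 25.6 ± 6.57 (log2 4.07 ± 0.10, edgeR adjusted p = 9.52e-14), and Mgl2 at 385 ± 48.1 against 33.0 ± 7.05 (log2 3.56 ± 0.08, edgeR adjusted p = 3.04e-14). All 3 genes were higher in all libraries, where 16.3% of 13514 genes were higher. The gate held 75.9%, 70.9% and 71.1% of the Cd209a UMIs of the infarct libraries and 57.4% of those at baseline.

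Within this gate the 3 lectins differed in how they compared with the baseline. Clec10a was above its baseline level of 226 CPM in all infarct libraries (363 to 475), and after thinning it was seen in 46.2%, 43.1% and 40.7% of infarct cells of the gate against 28.0% at baseline. Mgl2 was below its baseline level of 705 (357 to 441) and was seen in 23.8%, 22.7% and 29.2% against 39.4%. Cd209a was below its baseline level of 985 and was seen in 53.8%, 47.2% and 53.6% against 64.2%. In B cell-like cells the thinned shares were at most 4.35% for Clec10a and 13.0% for Mgl2, and Cd209a was seen in 0 of 108 baseline cells (exact binomial 95% upper bound 3.36%) and in 0 of 50, 29 and 92 infarct cells (7.11%, 11.9% and 3.93%).

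Mgl2 and Clec10a were also higher in resident macrophage-like infarct cells, at 117 ± 72.1 CPM (log2 1.25 ± 0.17, edgeR adjusted p = 2.99e-09) and 90.9 ± 15.7 (log2 1.12 ± 0.16, edgeR adjusted p = 5.59e-09). The Mgl2 call in these cells was lost without infarct 2, whose level was 199. In MHC-II-high macrophage-like cells Mgl2 stood at 88.3 ± 10.9 (log2 1.38 ± 0.06, edgeR adjusted p = 9.99e-09) and at 877 in the same gate at baseline. In mature dendritic cell-like cells neither gene passed the test. Mgl2 and Clec10a share part of their 3′ ends: 9.19% and 13.7% of the runs of 50 bases in their last 600 transcript bases occur in another gene, as do 13.9% for Cbr2, so reads there could be dropped or split by the counting.

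Clec4e and Clec4d were highest in granulocyte-like cells, which were few (85, 71 and 121 cells in the infarct libraries) and remained in spite of the Ly6G- sort. Clec4e stood at 537 ± 68.4 CPM against 55.8 ± 17.3 in the other myeloid cells (log2 3.15 ± 0.14, edgeR adjusted p = 2.64e-63), and Clec4d at 414 ± 99.3 against 116 ± 5.97 (log2 1.66 ± 0.13, edgeR adjusted p = 2.10e-26). Clec4n was higher there too, at 403 ± 135 (log2 1.09 ± 0.13, edgeR adjusted p = 5.93e-13). Of 13210 genes tested, 5.61% were higher in this gate. The baseline granulocyte-like cells held Clec4d and Clec4e at 441 and 425, near the infarct levels, but Clec4n at only 57.6.

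Classical monocyte-like and Saa3-Arg1 macrophage-like cells came next for both genes. In classical monocyte-like cells Clec4e stood at 279 ± 47.2 (log2 2.76 ± 0.18, edgeR adjusted p = 4.22e-06) and Clec4d at 191 ± 48.7 (log2 0.78 ± 0.13, edgeR adjusted p = 0.00127), above their baseline levels of 131 and 56.8. In Saa3-Arg1 macrophage-like cells Clec4d stood at 326 ± 65.1 (log2 1.58 ± 0.09, edgeR adjusted p = 7.67e-14) and Clec4e at 198 ± 78.9 (log2 1.84 ± 0.13, edgeR adjusted p = 5.43e-12).

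The neighbours were called in opposite directions only in reparative macrophage-like and non-classical monocyte-like cells. In reparative macrophage-like cells Clec4d was higher, at 126 ± 9.92 (log2 0.27 ± 0.06, edgeR adjusted p = 0.00891, a call lost without infarct 3), while Clec4e was lower at 23.0 ± 1.36 against 85.8 ± 21.2 (log2 -1.81 ± 0.09, edgeR adjusted p = 4.65e-06). In non-classical monocyte-like cells Clec4e was higher at 182 ± 75.3 (log2 1.61 ± 0.20, edgeR adjusted p = 9.64e-08), and Clec4d was lower at 46.6 ± 19.6 (log2 -1.41 ± 0.18, edgeR adjusted p = 2.34e-07). MHC-II-high macrophage-like cells were low in both, with Clec4d at 26.9 ± 3.28 (log2 -2.24 ± 0.06, edgeR adjusted p = 1.16e-10).

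**Figure D4:**
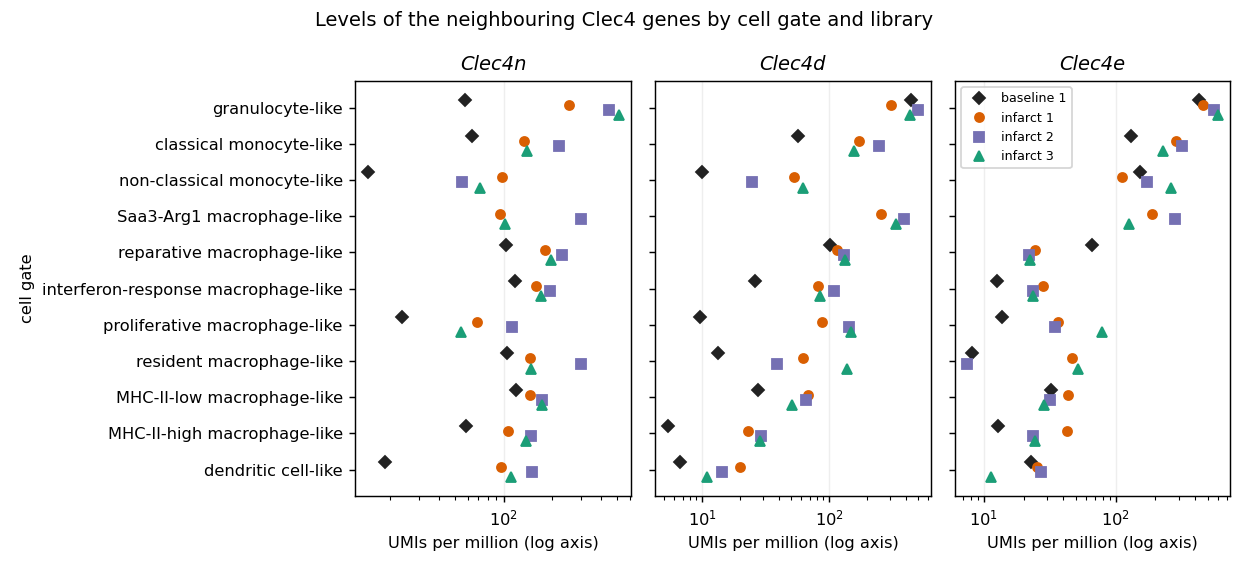
Levels of the neighbouring chromosome 6 lectins Clec4n, Clec4d and Clec4e by cell gate, in CPM (log axis), with 1 mark per library. In reparative macrophage-like cells the infarct mean is 126 for Clec4d and 23.0 for Clec4e, while in granulocyte-like cells the means are 414 and 537.

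Clec4n was higher in 2 and lower in 5 of the 12 gates tested. Reparative macrophage-like cells held 46.4%, 53.3% and 53.4% of its UMIs in the infarct libraries, at 201 ± 25.2 CPM against 141 ± 29.5 elsewhere (log2 0.59 ± 0.05, edgeR adjusted p = 0.000104). It was lower in dendritic cell-like cells (119 ± 27.4, log2 -0.51 ± 0.07, edgeR adjusted p = 2.28e-05) and in proliferative macrophage-like cells (78.9 ± 30.3, log2 -1.22 ± 0.13, edgeR adjusted p = 8.87e-05). All 3 infarct libraries lay above the baseline in each of the 10 gates with at least 20 cells in every library, the only one of the 9 genes for which this was so.

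Clec4a1 was higher in 4 and lower in 4 of the 12 gates. It was higher in non-classical monocyte-like cells, at 384 ± 57.1 CPM against 223 ± 21.6 (log2 0.68 ± 0.11, edgeR adjusted p = 1.02e-05), and in MHC-II-high macrophage-like cells, at 270 ± 22.8 (log2 0.41 ± 0.03, edgeR adjusted p = 2.02e-06). It was lower in dendritic cell-like cells (103 ± 1.36) and lowest in mature dendritic cell-like cells, at 14.3 ± 2.93 (log2 -3.99 ± 0.27, edgeR adjusted p = 1.91e-46). Its neighbours in the order of infarct gates, from resident macrophage-like at 294 to interferon-response macrophage-like at 241, had overlapping ranges.

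Across 12 gates and 9 genes, 108 pairs were tested in the infarct libraries. Of these, 25 were higher and 58 lower at an adjusted p under 0.01, against 9.92% and 11.0% of all tests of a gene in a gate. The other 25 pairs did not pass the threshold. The 58 lower pairs included Cd209a in all 7 macrophage gates and Retnla, Cbr2 and Clec4d in dendritic cell-like cells. The comparator of each macrophage gate held the dendritic cell-like cells, where Cd209a averaged 809 CPM against 7.64 in other infarct myeloid cells. The lower Cd209a calls therefore do not rank the macrophage gates among themselves, and the 58 pairs are not independent of each other. Against macrophages alone, the Cd209a difference turned direction in the resident, reparative, proliferative and MHC-II-high macrophage gates.

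By gate, the calls among the 9 genes were set beside the share of all genes called. Resident macrophage-like cells had 4 higher and 3 lower (Clec4d, Clec4e and Cd209a; 5.32% of all genes were lower). Clec4d and Clec4e were lower there in 2 of 3 libraries, both calls were lost without infarct 2 and with 1 more marker per gate, and with 1 more marker the log2 difference of Clec4d was 0.49. Reparative macrophage-like cells had 2 higher (9.79%) and 5 lower (14.6%). In Saa3-Arg1 macrophage-like cells 4 were higher (14.1%) and 3 lower (11.9%). The lower ones were Cd209a, Mgl2 and Clec10a, each highest in the dendritic cell-like gate of the infarcts. Interferon-response macrophage-like cells had only Clec4a1 higher (7.44%, and in 2 of 3 libraries) and 4 lower (4.97%), and proliferative macrophage-like cells had 5 lower (9.16%), Retnla among them. In MHC-II-high macrophage-like cells Clec4a1, Mgl2 and Retnla were higher (9.19%) and 5 were lower (11.8%). MHC-II-low macrophage-like cells had Clec4a1 alone higher (6.53%) and 6 lower (11.3%). Classical monocyte-like cells had Clec4d and Clec4e higher (14.9%) and Mgl2 and Cbr2 lower (15.3%). Non-classical monocyte-like cells had Clec4e and Clec4a1 higher (7.95%) and the remaining 7 lower (9.15%). Dendritic cell-like cells had 6 lower (18.1%), mature dendritic cell-like cells 6 lower (13.3%) with none higher (9.87%), and granulocyte-like cells 6 lower (6.99%), of which Cd209a and Clec10a were lower in 2 of 3 libraries, with calls lost without infarct 1 and without infarct 3. The lower calls for Retnla rested on 0 UMIs in mature dendritic cell-like and non-classical monocyte-like cells and on 2 in granulocyte-like cells. These gates held 30 to 131 cells in an infarct library. Sums of UMIs do not show that few cells carry Retnla, so such low counts could reflect which cells were sampled.

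The levels were also compared with what the change in the mix of gates alone would give. If each gate had kept its baseline level and only the share of UMIs per gate had been that of the infarcts, Retnla would have stood at 803 to 927 CPM, where 9.86 to 38.1 was measured. The level of the Saa3-Arg1 macrophage-like gate in this calculation rests on 13 baseline cells. For Mgl2 the calculation gave 405 to 448 against 33.7 to 51.5 measured, and for Cbr2 137 to 166 against 25.4 to 42.9. Clec10a (41.0 to 44.8 against 30.2 to 52.3), Cd209a (41.1 to 59.9 against 28.0 to 44.0) and Clec4e (52.3 to 67.2 against 49.3 to 77.8) had overlapping ranges. Clec4n and Clec4a1 were measured above the calculated range, at 138 to 204 against 76.1 to 88.1 and at 197 to 236 against 125 to 131, and Clec4d also, at 114 to 129 against 65.1 to 92.0. The reverse calculation, with infarct gate levels and the baseline mix, gave 51.2 to 62.7 for Retnla, 72.8 to 106 for Mgl2 and 140 to 229 for Cbr2, where 840, 630 and 367 were measured at baseline. For Cbr2 the difference that went with the mix thus depended on the direction of the calculation: from 367 to a mean of 153 with baseline levels, and from a measured infarct mean of 36.1 to a mean of 194 with infarct levels.

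**Figure D5:**
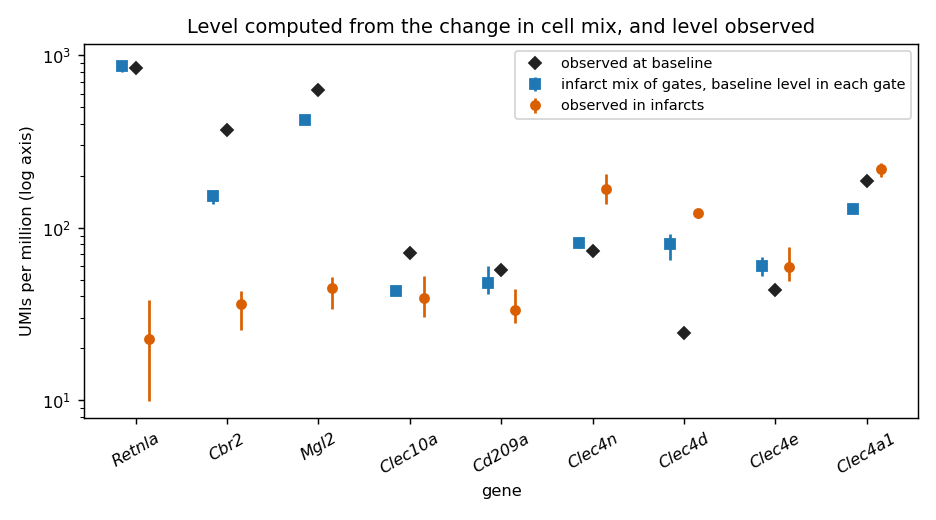
Measured level of each gene in the infarct libraries and the level calculated from baseline gate levels and infarct shares of gates, in CPM (log axis). Calculated and measured ranges overlap for Clec10a, Cd209a and Clec4e, and lie apart for Retnla (803 to 927 against 9.86 to 38.1).

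Other C-type lectins were read from the same fits. Of 31 that marked no gate, 46 of 283 tests were higher and 79 lower (9.92% and 11.0% of all tests of a gene in a gate). In dendritic cell-like cells 10 of 25 were higher (16.3% of all genes; median log2 difference 0.76, against -0.08 for all genes), led by relatives of Cd209a: Cd209b and Clec4g at low levels and Cd209d at 52.2 CPM against 0.849 (log2 5.99). Resident macrophage-like cells had 3 of 23 higher (3.56% of all genes): Cd209f, a relative of Cd209a (18.7 against 0.0532, log2 8.16, on 43 UMIs and in 2 of 3 libraries), the scavenger receptor Colec12 (log2 3.61) and Mrc1, the mannose receptor (1588 against 445, log2 1.65), with a median over the list of -0.50 against -0.06 for all genes. Granulocyte-like cells were higher in Clec5a (149 against 52.3, log2 1.37), MHC-II-high macrophage-like cells in Clec4b1 (128 against 40.5, log2 1.74), and mature dendritic cell-like cells in Ly75 (190 against 0.520, log2 8.49). Against baseline, 5 of the 14 lectins with at least 10 CPM in any library were above and 8 below in all infarct libraries. Cd209f, Colec12 and Cd207 (langerin) reached 10 CPM only in the baseline library, so that their side was fixed by this filter. Of all genes averaging at least 10 CPM over the libraries, an unlike filter, 30.7% were above and 55.7% below. Mrc1 stood at 1340 at baseline and at 394, 456 and 472 in the infarcts. Cd207 stood at 26.6 at baseline and at 0.294, 0.437 and 0.340 in the infarcts.

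Adaptor and kinase genes of the activating lectins were higher in 34 and lower in 29 of 168 tests, against 9.92% and 11.0% of all tests. The count of higher calls moved to 22 without infarct 3, and that of lower calls to 19 without infarct 2. Fcer1g, the shared chain of the Clec4n, Clec4d and Clec4e receptors, stood at 2073 CPM at baseline and at 3177, 3546 and 3206 in the infarcts, above the baseline in all 3 libraries, and Tyrobp likewise (2172 against 2932 to 3045). Syk was below (203 against 146, 113 and 132). In classical monocyte-like cells, where Clec4e was high, 8 of the 14 genes were higher (14.9% of all genes; median log2 0.32 against -0.05 for all genes), among them Malt1 (log2 0.92), Card9 (18.3 against 10.5, log2 0.79) and Plcg2 (log2 0.70). In granulocyte-like cells only Ptpn6 was higher (log2 0.58; 5.61% of all genes) and Nfkb1 lower (log2 -0.54; 6.99%). In total 2 of 13 genes with at least 10 CPM in any library lay above and 9 below the baseline in all infarct libraries. Of all genes averaging at least 10 CPM over the libraries, 30.7% and 55.7% did so.

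Interleukin-4 response genes were higher in 52 and lower in 61 of 218 tests, against 9.92% and 11.0% of all tests. The list also held Cbr1, Cbr3, Cbr4, Retn and Retnlg, relatives of Cbr2 and Retnla by name. Retnlg, Arg1, Chil3, Ccl22, Socs2 and Ear2 marked gates and were left out of these tests, which used 20 of the 26 listed genes. In Saa3-Arg1 macrophage-like cells, 6 of 18 were higher (14.1% of all genes) and 4 lower (11.9%; median log2 0.03 against -0.04 for all genes), with Ccl24, an eosinophil chemokine, at 262 against 22.9 (log2 3.36), the scavenger receptor Cd36 at 265 against 52.4 (log2 2.23) and Tgm2 at 146 against 61.7 (log2 1.15). In resident macrophage-like cells 4 of 18 were higher (3.56% of all genes), with Mrc1, Cd36 (188 against 64.2, log2 1.36) and Ccl24 (68.9 against 36.4, log2 0.79) leading. Dendritic cell-like cells of the infarcts held Mgl2 and Clec10a but only 3 Retnla UMIs, while that gate stood at 1383 CPM of Retnla at baseline. In the infarcts these cells were higher in Irf4 (35.5 against 5.28, log2 2.81) and Ccl17 (41.5 against 5.01, log2 3.48) and lower in Ccl24 (1.18 against 37.9). Of 20 genes with at least 10 CPM in any library, 6 lay above the baseline in all infarct libraries, Cbr3 and Cbr4 among them, and 13 below. Retnlg reached 10 CPM only at baseline (17.1), so that its place among the 13 was fixed by this filter. Arg1 and Cbr4 reached it only in the infarcts. Of all genes averaging at least 10 CPM over the libraries, an unlike filter, 30.7% were above and 55.7% below. Arg1 stood at 2.43 at baseline and at 382, 103 and 251 in the infarcts, and the receptor gene Il4ra at 55.6 and at 106, 88.5 and 85.4, whereas Ear2 (79.9 against 8.11 to 12.0), Ccl24 (153 against 34.0 to 44.1) and Stat6 (99.8 against 60.0 to 74.6) were lower.

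Over the 51 sums of a gate and a library with at least 20 cells, the genes fell into pairs by Pearson correlation of log2(CPM + 10), given as a description since the points share libraries and gates. Clec10a and Cd209a were closest (r = 0.80), then Clec4d and Clec4e (0.73), Retnla and Cbr2 (0.69), Retnla and Mgl2 (0.65), and Clec4n and Clec4d (0.64), while Mgl2 and Clec4d ran opposite (-0.50). Among 5656 other genes, the closest to Clec4a1 was Clec4a3, another DCIR-group lectin (r = 0.95), the closest to Clec4e was Trem1, an activating receptor of neutrophils and monocytes (0.91), and the closest to Mgl2 was the lectin gene Clec4b1 (0.77). Retnla followed Lyz1 (0.81), Cbr2 followed Psd3 (0.93), Cd209a followed Trappc5 (0.83), and Clec10a followed Klrd1 (0.74). Clec4d and Clec4n were closest to Sntb2 (0.85) and Psenen (0.81).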

How the data were processed

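Cells were profiled with a droplet 3′-end kit in 1 baseline and 3 infarct libraries. The deposited matrices hold raw UMI counts as whole numbers, produced by the authors using Cell Ranger (3.1.0 per the file headers, 3.0.1 in the submitters' processing notes) and the mm10 reference, and not normalized. Cells with 500 to 40000 UMIs and at least 200 genes were kept. Deposited totals were 71093963 UMIs at baseline and 88157753 to 97944428 in the infarcts. Levels are CPM computed here from counts summed over cells, mitochondrial genes left out, with exact 95% Poisson intervals. Intervals and limits cover counting error only.

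Cells were gated by marker genes. Macrophage-like cells had at least 3 of 6 macrophage markers (C1qa, C1qb, C1qc, Mertk, Adgre1 and Fcgr1) and 20 of their UMIs for each 10000, resident and reparative gates needed 2 of their markers, the interferon-response gate 4 and the others 3, and MHC-II-high cells had 100 UMIs of class II genes for each 10000. Members and lists were chosen with earlier results of these data known, and the gate thresholds were set after the data had been seen. Scrublet (scanpy 1.11.5) marked 2.18% of baseline cells and at most 0.0198% of infarct cells with its own threshold. The automatic call was taken not to have worked and doublets stayed in, and removal of the 8.10% to 8.63% with the highest scores was an alternative.

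In the infarcts, counts were summed per library over a gate and over all other gated myeloid cells, for each gate with at least 20 cells per library (12 gates; type 1 dendritic cell-like cells had fewer), and tested with edgeR 4.0.16 (R 4.3.3; quasi-likelihood, TMM, filterByExpr, library as a block, as 1 heart gave the gate sum and its comparator, adjusted p under 0.01 by Benjamini-Hochberg over all genes of a gate). The fit was tested on simulated data. Each infarct is 1 heart, and baseline is 1 pool. All 9 measured members are named, and of each other list at most 3 genes per gate and direction, those with the largest change past the threshold. For likeness the closest genes averaging 20 CPM or more over the sums were named, gate markers, mitochondrial and sex-linked genes left out. Shares of cells were computed with Python 3.11.15 and SciPy 1.17.1 after thinning to 2000 UMIs, leaving out shallower cells (8991 baseline cells and 9073 to 10110 infarct cells remained). DESeq2 1.42.0 was an alternative. Other alternatives were size-factor scaling, no filter on low counts, no block, macrophages alone as comparator, cells with over 10% mitochondrial UMIs removed, at least 1000 UMIs, 1 more marker per gate and each infarct left out.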

Additional observations from a re-analysis of the deposited data

Results flagged for a closer look

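Clec4e lay on opposite sides of the baseline in 2 macrophage gates. In proliferative macrophage-like cells all 3 infarct libraries (34.4 to 79.2 CPM) were above the baseline level of 13.7, and in reparative macrophage-like cells all 3 (22.1 to 24.6) were below the baseline level of 66.6. The log2 change from baseline differed by 3.40 between these gates. This difference was not tested, since the baseline is 1 library, and the baseline gates held 140 and 205 cells. They held 2.48% and 4.11% of that library's UMIs, so both baseline levels rest on few counts. A single cell of the baseline reparative macrophage-like gate held 36 of the library's 2945 Clec4e UMIs.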

How the results depend on the processing

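Infarct against baseline, the 4 genes above and 5 below kept their side under every alternative run except Cd209a, whose thinned and equal-weight values overlapped the baseline. Of the 83 called pairs of gene and gate, all kept their call under DESeq2 size factors, without a filter on low counts, with at least 1000 UMIs per cell and without highly mitochondrial cells. The call was kept for 82 with doublets removed, 79 after thinning, 74 with 1 more marker, 72 under the DESeq2 Wald test, 68 against macrophages alone and 77, 79 and 77 without infarct replicate 1, 2 and 3, and 45 kept it throughout. Without the replicate block (pairing of the sums of a heart), 49 kept it: 15 higher and 34 lower pairs remained, other C-type lectins had 26 and 49 calls, adaptor and kinase genes 20 and 11, and interleukin-4 response genes 28 and 31. Leaving out 1 infarct gave 23 to 27 higher and 56 to 61 lower pairs, 39 to 45 and 65 to 72 calls for other lectins, 22 to 32 and 19 to 22 for adaptor and kinase genes, and 38 to 47 and 54 to 60 for interleukin-4 response genes. The adaptor and kinase count moved by over 1.5 times to 22 higher without infarct replicate 3 and to 19 lower without infarct replicate 2.

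Some log2 differences turned direction. With 1 more marker, Clec4d in resident macrophage-like cells was 0.49. Against macrophages alone, Cd209a was 0.15 in resident macrophage, 0.058 in reparative macrophage, 0.44 in proliferative macrophage, 1.00 in MHC-II-high macrophage and 0.40 in granulocyte gates, and Clec10a was 0.13 in the Saa3-Arg1 macrophage gate. None of these passed the threshold, and against macrophages alone the comparator no longer holds the dendritic cell-like cells. In resident macrophage-like cells, the calls for Mgl2, Clec4d and Clec4e were lost without infarct replicate 2. Cell number and depth limit the small gates, which held 30 to 131 cells in an infarct library (resident macrophage-like, non-classical monocyte-like, mature dendritic cell-like and granulocyte-like).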
